A study of Macaca mulatta with 252 samples.

Results

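Collagens, laminins and integrins are the structural proteins of the extracellular matrix and the receptors that bind it. The genes described here are those whose symbol in the probe annotation of the array begins with COL, LAM or ITG in the pattern of a collagen chain, a laminin chain or an integrin subunit. There were 66 such genes among 14133 genes on the array, carried by 134 of the 24969 probe sets with 1 gene symbol. They comprised 35 collagen chains, 9 laminin chains, 10 integrin alpha subunits, 8 integrin beta subunits and 4 genes that share the prefix without being a subunit (ITGB1BP1, ITGB1BP2, ITGB3BP and ITGBL1). COL4A1, COL4A2, LAMA5, ITGAL and ITGAX had no probe set with a single symbol in this annotation and are not described.

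Collagens are trimers: fibrillar collagens form the fibres of connective tissue, fibril-associated collagens decorate them, and type IV collagens form the network of basement membranes. Laminins are heterotrimers of an alpha, a beta and a gamma chain, and are the other main network of the basement membrane. Integrins are alpha-beta dimers that link these proteins to the cytoskeleton. In the brain, basement membranes surround the blood vessels and the pial surface, and the space between neurons and glia holds little fibrillar collagen.

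RNA of small pieces of adult rhesus macaque brain, cut out by laser capture, was amplified and hybridised to GeneChip Rhesus Macaque arrays. The pieces were single cortical layers of 10 areas, the hippocampal fields CA1, CA2, CA3 and dentate gyrus (DG), and, in the lateral geniculate nucleus (LGN, the visual relay of the thalamus), its magnocellular, parvocellular and koniocellular parts. There were 197 arrays of cortex, 16 of hippocampus and 12 of LGN, in 57 region groups (54 of 4 arrays, 3 of 3). They came from 6 animals: males A, B, C; females D, E, F. The 27 control arrays, among them 15 of a pool of whole brain RNA, entered no comparison. The cortical areas were anterior cingulate gyrus (ACG), orbitofrontal (OFC), dorsolateral prefrontal (DLPFC), primary motor (M1), primary somatosensory (S1), primary auditory (A1), primary visual (V1), secondary visual (V2), middle temporal (MT) and temporal (TE) cortex. ACG, OFC and M1 had layers 2, 3, 5 and 6, V1 had layer 4 divided into 4A, 4B, 4Ca and 4Cb, and the other areas had layers 2 to 6. No genotype or treatment was given for the animals. A piece holds all the cell types of its layer, so fewer cells of a type and less RNA per cell cannot be told apart.

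The medians of single arrays ranged from 4.72 to 5.00. The median correlation of an array with the other arrays of its group was 0.983. The samples V1 layer 4Ca of female E, DLPFC layer 2 of male B and V1 layer 5 of male A were below 0.949 in that correlation. All levels below are log2 intensities, and all differences are differences of log2 intensity. Differences were tested with limma over all genes whose mean exceeded the median of all probe sets (4.80), with the animal as a block. A gene is called changed when its Benjamini-Hochberg adjusted p was under 0.05 and the difference was at least 1 log2 unit, which is 2-fold. Where more than a pair of levels is compared, the size is the highest minus the lowest fitted mean.

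Of the 66 genes, 45 had a mean over these arrays above the median of all probe sets: 21 of 35 collagens, 6 of 9 laminins, 9 of 10 integrin alpha subunits, 7 of 8 integrin beta subunits and 2 of the 4 others. 28 genes were above it in all 57 groups and 6 in none. Those 6 were COL1A1 and COL1A2, the chains of the main fibrillar collagen of skin and bone, COL8A2, COL21A1, ITGB1 and ITGB1BP2. A probe set below that median gives no measure of how much transcript is present, and ITGB1, the common beta partner of many alpha subunits, averaged 3.86.

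Across the 57 groups 30 of the 45 tested members were called changed, beside 68.4% of all genes tested, so the family as a whole varied about as often as other genes. The median range of the fitted group means was 1.27 over the members and 1.26 over all genes. The called members were 14 of 21 collagens, 3 of 6 laminins, 7 of 9 integrin alpha and 4 of 7 integrin beta subunits, and both ITGB1BP1 and ITGB3BP. Among the members not called, the ranges were largest for ITGA8 (1.22, adjusted p = 0.063) and ITGB4 (0.997, adjusted p = 3.58e-08).

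COL4A5, a chain of the basement membrane collagen IV, had the widest range. Its group means ran from 4.44 ± 1.01 (SD, n = 4) in V2 layer 2 to 8.93 ± 0.58 (SD, n = 4) in A1 layer 6. In V2 layer 2 it measured 5.10 in female D, 5.42 in female E, 3.21 in male A and 4.06 in male C. In A1 layer 6 it measured 8.91, 9.28, 9.40 and 8.12 in the same animals. LAMB1, the laminin beta-1 chain, ran from 3.04 ± 0.24 (SD, n = 4) in V2 layer 5 to 7.51 ± 0.36 (SD, n = 4) in MT layer 2. The 4 arrays of V2 layer 5 lay between 2.74 and 3.31 and those of MT layer 2 between 7.08 and 7.90. The lowest means of COL4A5 and LAMB1 are below the median of all probe sets. Those of COL4A4, COL11A1, COL24A1, LAMA4 and COL12A1, given next, are below it too. The sizes of these ranges, and their order, are therefore not measured.

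COL4A4, another collagen IV chain, was above the median of all probe sets in 3 of the 57 groups, which were the 3 divisions of the LGN; its highest mean was 7.21 ± 0.49 (SD, n = 4) in the parvocellular division and its lowest 3.27 ± 0.12 (SD, n = 4) in DG. The fibrillar collagen COL11A1 was highest in CA3 at 7.58 ± 1.15 (SD, n = 4) and lowest in V1 layer 2 at 4.11 ± 0.55 (SD, n = 4). The fibrillar collagen COL24A1 was above the median in 7 groups, with its highest mean in MT layer 6 at 5.83 ± 0.94 (SD, n = 4) and its lowest in the koniocellular LGN at 2.40 ± 0.072 (SD, n = 4). ITGA6, the alpha subunit of laminin receptors, was highest in TE layer 2 at 8.26 ± 0.38 and lowest in V2 layer 4 at 5.39 ± 0.21 (SD, n = 4 each). COL9A3, a chain of the fibril-associated collagen IX, was highest in M1 layer 6 at 7.83 ± 0.46 and lowest in DG at 5.06 ± 0.32 (SD, n = 4 each). LAMA4, a laminin alpha chain of vascular basement membranes, was highest in V1 layer 4Cb at 7.31 ± 0.48 and lowest in DG at 4.65 ± 0.25 (SD, n = 4 each).

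The remaining 4 of the 12 widest ranges belonged to 3 collagens and 1 integrin. The fibril-associated collagen COL12A1 was highest in V1 layer 4A at 7.31 ± 0.14 and lowest in CA3 at 4.69 ± 0.43 (SD, n = 4 each). The fibril-associated collagen COL16A1 was highest in ACG layer 5 at 7.64 ± 0.22 and lowest in DG at 5.12 ± 0.19 (SD, n = 4 each). ITGB8, the beta subunit that pairs with ITGAV and releases active TGF-beta, was highest in A1 layer 6 at 10.04 ± 0.38 and lowest in V1 layer 2 at 7.52 ± 0.46 (SD, n = 4 each). COL18A1, the basement membrane collagen from which endostatin is cut, was highest in DG at 11.32 ± 0.16 and lowest in V1 layer 4Cb at 9.14 ± 0.086 (SD, n = 4 each).

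**Figure D1:**
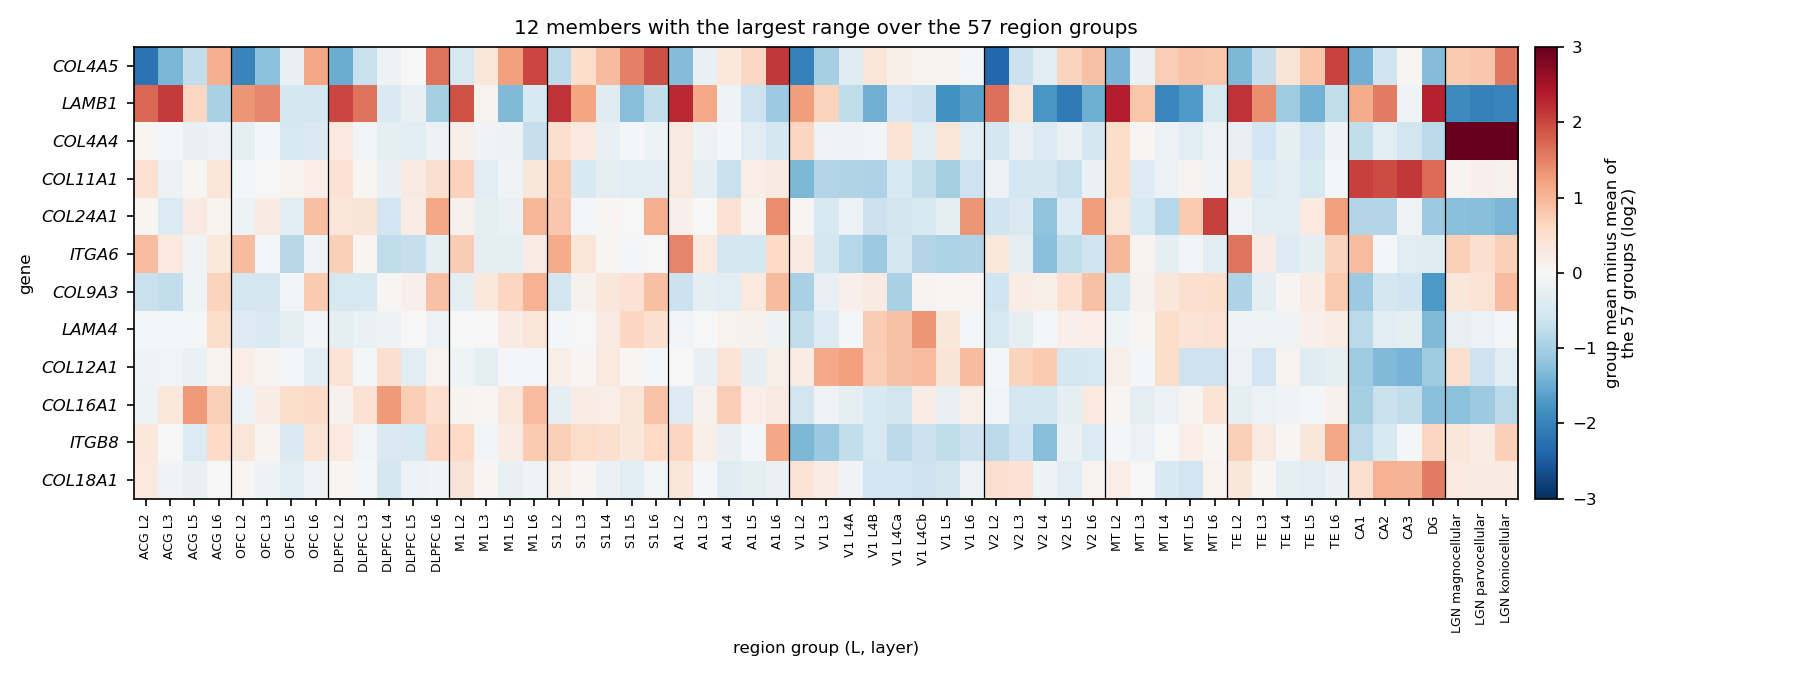
Mean of each of the 57 region groups (columns, ordered by area and layer) minus the mean of the 57 groups, on the log2 scale, for the 12 members with the largest range (rows). COL4A5 is higher and LAMB1 lower in the deep than in the upper layers of each area. COL4A4 is high in the 3 LGN divisions and COL11A1 in the 4 hippocampal fields.

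The layers were compared in the 6 areas with layers 2 to 6, over 4 animals, with the value of each animal and layer averaged over its areas. Among the 45 tested members 4 were called changed across layers, COL4A5, COL9A3, LAMB1 and ITGA6, beside 6.62% of all genes. LAMB1 was high in the upper layers. In layer 2 it measured 7.37 in female D, 7.38 in female E, 7.13 in male A and 7.20 in male C, and in layer 3 it measured 6.45, 6.53, 6.33 and 6.15. In layer 5 it measured 3.84, 4.18, 3.52 and 3.89, below layers 2 and 3 in every animal. Against the mean of the other layers LAMB1 was 2.60 ± 0.084 (SE) higher in layer 2 (adjusted p = 4.75e-14) and 1.47 ± 0.084 (SE) higher in layer 3. It was lower in layer 4 (-1.23), layer 5 (-1.66) and layer 6 (-1.17), with the same standard error, and all 5 contrasts were called. The LAMB1 means of layers 4 (4.21), 5 (3.86) and 6 (4.25) are below the median of all probe sets, so the sizes of its differences are not measured. Layer 2 against the others gave 3 calls among the 45 members (LAMB1, COL4A5 and ITGA6), beside 2.72% of all genes, and layer 6 gave 2 (COL4A5 and LAMB1), beside 1.65%.

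COL4A5 was lowest in layer 2 and highest in layer 6. In layer 2 it measured 5.86 in female D, 5.83 in female E, 4.82 in male A and 5.15 in male C, and in layer 6 it measured 8.56, 8.40, 8.48 and 8.09. Its mean increased at each step from layer 2 to layer 6 in all 4 animals. It was 1.99 lower in layer 2 than in the other layers (difference -1.99 ± 0.11 SE, adjusted p = 2.75e-11) and 1.72 ± 0.11 (SE) higher in layer 6 (adjusted p = 4.84e-10).

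COL9A3 increased in the same direction over a smaller range. It measured 6.07 in female D, 6.11 in female E, 6.03 in male A and 6.33 in male C in layer 2, and 7.47, 7.72, 7.68 and 7.51 in layer 6. The fitted range was 1.46 (adjusted p = 4.64e-10), and the contrasts of layer 2 (-0.95 ± 0.065 SE) and layer 6 (0.88 ± 0.065 SE) with the other layers were each below 1 log2 unit. The other chains of collagen IX followed the same order: COL9A2 averaged 6.19 ± 0.046 in layer 2 and 7.08 ± 0.13 in layer 6, and COL9A1 averaged 6.79 ± 0.079 and 7.43 ± 0.17 (SD, n = 4 each). Neither was called across layers, and the range for COL9A2 was 0.89 (adjusted p = 1.54e-08).

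ITGA6 was highest in layer 2, where it measured 7.91 in female D, 7.69 in female E, 7.50 in male A and 7.77 in male C. In layer 4 it measured 5.95, 6.50, 6.13 and 5.87, and in layer 6 its mean was 6.63 ± 0.22 (SD, n = 4). It was 1.26 ± 0.10 (SE) higher in layer 2 than in the other layers (adjusted p = 7.65e-09). Its layer 2 values did not overlap those of any other layer.

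**Figure D2:**
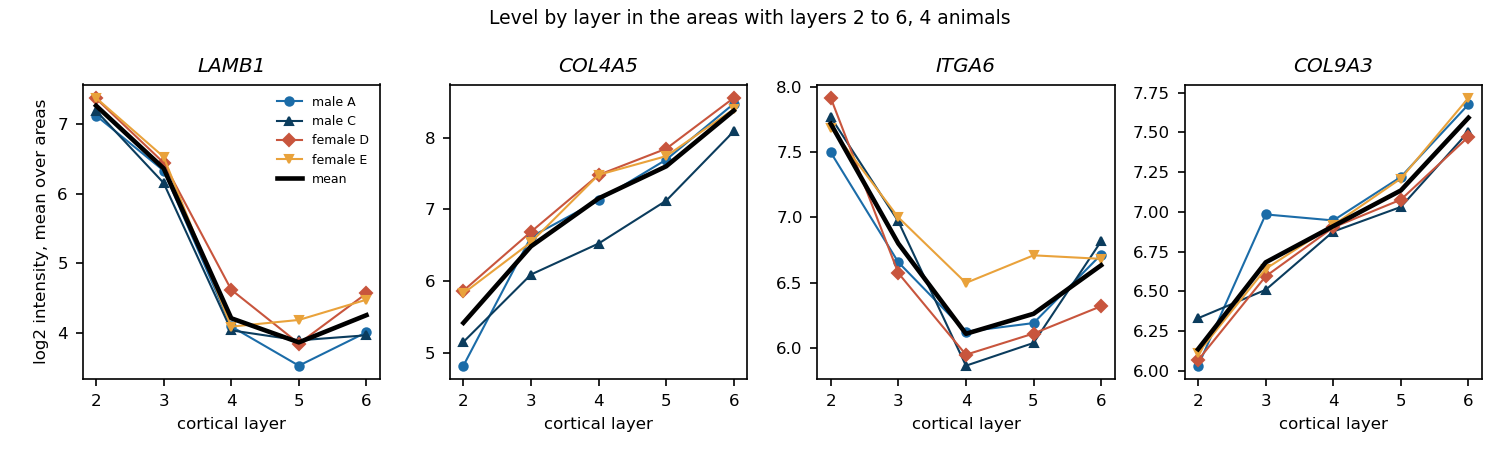
Log2 intensity of LAMB1, COL4A5, ITGA6 and COL9A3 by cortical layer; thin lines join the values of each of 4 animals (mean over the areas with layers 2 to 6) and the black line is their mean. LAMB1 drops between layers 3 and 4, COL4A5 and COL9A3 increase from layer 2 to layer 6, and ITGA6 is highest in layer 2.

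No other member was called across layers. In the F test over layers 26 of 45 members had an adjusted p under 0.05, beside 62.7% of all genes, and the median fitted range was 0.25 over the members and 0.26 over all genes. Of those not called, 19 were collagens, 5 laminins, 8 integrin alpha subunits and 7 integrin beta subunits; the largest ranges were those of COL9A2, above, and COL11A1 (0.81, adjusted p = 7.95e-07), which was highest in layer 2. The layer accounted for 76.6% of the variance of LAMB1 over the 152 cortical arrays of complete areas, 65.7% for COL9A3, 64.1% for COL4A5 and 46.3% for ITGA6. The median share of the layer was 4.80% over the tested members and 6.50% over all tested genes.

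Deep layers (5 and 6) were set against upper layers (2 and 3) in all 10 areas, averaged per animal over 5 animals. COL4A5 was higher in the deep layers by 1.97 ± 0.081 (SE, adjusted p = 7.36e-13) and LAMB1 was lower (-2.42 ± 0.12 SE, adjusted p = 1.72e-11). These were 2 of 45 members, beside 2.14% of all genes, with a median difference of -0.032 over the members. Each held in 38 of 38 pairs of animal and area, 6 animals included: the difference of COL4A5 lay between 0.88 and 3.00, and that of LAMB1 between -3.47 and -1.41. The LAMB1 means of layers 5 and 6 given above are below the median of all probe sets. The sizes of its differences are therefore not measured. COL9A3 was likewise higher in the deep layers in 38 of 38 pairs, by 0.90 ± 0.056 (SE), which was under the size threshold. ITGA6 was lower in the deep layers (-0.70 ± 0.080 SE), in 37 of 38 pairs. Other members under the size threshold had similarly regular differences. ITGAM was higher in the deep layers in 0 of 38 pairs (median difference -0.36) and COL18A1 in 2 (-0.38). COL9A2 was higher there in 37 of 38 pairs (0.49) and COL9A1 in 36 (0.50).

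Several members have more than 1 probe set, and these did not always show the same pattern. The second probe set of LAMB1 followed the main one over the 57 group means (r = 0.89), with a difference between deep and upper layers of -0.87. The second probe set of COL4A5 averaged 4.01, below the median of all probe sets, and did not follow the main one (r = -0.016). Of the 3 other probe sets of ITGA6, 2 followed the main one (r = 0.73 and 0.68) and 1, with a mean of 5.72, ran against it (r = -0.62). The second probe sets of COL4A4 (r = 0.92) and COL11A1 (r = 0.72) followed the main ones, that of COL18A1 did not (r = 0.19), and the 3 others of ITGB8 were all below the median. COL9A2, COL9A3, COL12A1, COL16A1 and ITGAM had 1 probe set each.

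Markers of other cell types moved with some of these members. Of the 8 oligodendrocyte markers chosen for this comparison, MBP, UGT8 and CNP had a probe set with a single symbol. Over the 57 group means COL4A5 had r = 0.93 with the mean of these 3 genes, COL9A3 0.88, COL9A2 0.83, COL9A1 0.76 and LAMB1 -0.82. With the single genes, COL4A5 had r = 0.88 with MBP, the main protein of compact myelin, 0.94 with UGT8, the enzyme that makes galactolipids of myelin, and -0.15 with CNP. These correlations share the same arrays, are descriptive and carry no test. MBP itself was 1.83 ± 0.11 (SE) higher in deep than in upper layers, and UGT8 was 2.05 ± 0.11 (SE) higher. CNP did not follow them: it averaged 12.34 in layer 2 and 12.24 in layer 6, and was higher in the deep layers in 9 of 38 pairs of animal and area, with a median difference of -0.092. None of the 5 tested endothelial markers was called between deep and upper layers, with a median difference of 0.059, and COL4A5 had r = 0.50 with that list. The part of myelinating cells in the differences of COL4A5 and the collagen IX chains was not tested.

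**Figure D3:**
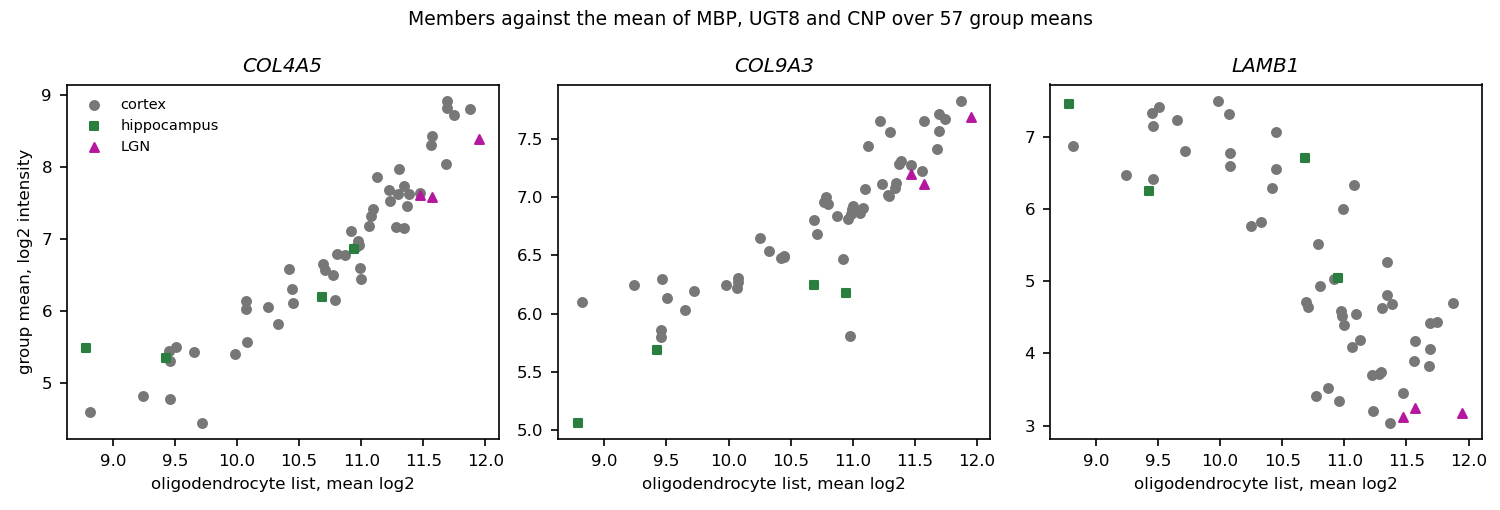
Group means of COL4A5, COL9A3 and LAMB1 (vertical axes, log2 intensity) against the mean of MBP, UGT8 and CNP (horizontal axes, log2 intensity) in the 57 region groups, with cortex as grey circles, hippocampus as green squares and LGN as magenta triangles. COL4A5 and COL9A3 increase with the marker mean (r = 0.93 and 0.88) and LAMB1 decreases (r = -0.82).

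ITGA6 had r = 0.67 with the list of fibroblast and meningeal markers and 0.62 with the astrocyte list. ITGB8 had r = 0.72 with the astrocyte list. ITGAM, the CD11b subunit by which microglia are usually identified, had r = -0.044 with the list of microglia and leukocyte markers and 0.72 with that of inhibitory neurons. It had 1 probe set, whose annotation was not checked here.

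Genes that work with collagens, laminins and integrins were compared across the same layers. None of the 5 tested basement membrane partners, the 10 collagen biosynthesis genes, the 4 other matrix receptors and the 11 integrin adaptors was called across layers in limma, and 2, 8, 2 and 7 of them had an adjusted p under 0.05. Of all genes 6.62% were called and 62.7% had an adjusted p under 0.05. Of 7 matrix proteases and their inhibitors 2 were called. ADAMTS4, a protease of lecticans, was 2.32 ± 0.094 (SE) higher in deep than in upper layers, and ADAMTS5, a related protease, was 1.15 ± 0.094 (SE) higher in layer 2 than in the other layers.

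Within V1 the 8 layers were compared over 4 animals, 32 arrays in all. Of 39 tested members 7 were called across layers, beside 14.9% of all genes: the collagens COL4A5, COL9A1, COL9A2, COL9A3 and COL18A1, the laminin LAMA4 and the integrin ITGAM. LAMA4 was highest in layer 4Cb, the input layer from the parvocellular LGN, where it measured 7.83 in female D, 7.53 in female E, 7.14 in male A and 6.73 in male C. In layer 2 it measured 5.01, 5.70, 5.52 and 4.73, below layer 4Cb in each animal. It was 1.23 ± 0.22 (SE) higher in layer 4Cb than in the other layers (adjusted p = 0.000415) and lower in layer 2 (-1.14 ± 0.22 SE, adjusted p = 0.000421). The means stepped up from layer 3 (5.57) through 4A (5.94), 4B (6.73) and 4Ca (6.86) to 4Cb (7.31), and down to layer 5 (6.31) and layer 6 (5.91). The second probe set of LAMA4 did not follow the main one over the 57 groups (r = 0.072).

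COL4A5 was low in V1 layer 2, at 4.77 ± 0.71 (SD, n = 4), against 5.82 ± 0.53 in layer 3 and between 6.44 and 7.17 in the deeper layers. It was 1.94 lower in layer 2 than in the others (difference -1.94 ± 0.26 SE, adjusted p = 5.85e-06). The layer 2 mean is below the median of all probe sets, so the size of the difference is not measured. The mean of COL4A5 was highest in layer 6 in every other area but MT, where it was highest in layer 5. In V1 it was highest in layer 4B (7.17 ± 0.81) against 6.78 ± 0.47 in layer 6 (SD, n = 4 each), a difference smaller than the spread between animals. The oligodendrocyte list also had its highest V1 mean in layer 4B (11.28) and its lowest in layer 2 (9.46). COL18A1 ran from 10.19 ± 0.11 in layer 2 to 9.14 ± 0.086 in layer 4Cb (SD, n = 4 each; range 1.05, adjusted p = 1.84e-06).

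ITGA6 was 1.10 ± 0.30 (SE) higher in V1 layer 2 than in the other V1 layers (adjusted p = 0.013), though its F test over the 8 layers was not called (adjusted p = 0.14). That call was lost without male C (0.82, adjusted p = 0.10). Layer 2 of V1 gave 3 calls among 39 members, beside 4.00% of all genes. LAMB1 was below the filter in V1. Tested without a filter, it was 2.15 ± 0.25 (SE) higher in V1 layer 2 (adjusted p = 7.72e-07), where its mean was 6.42 ± 0.52, against 3.34 ± 0.13 in layer 5 (SD, n = 4 each). The layer 5 mean is below the median of all probe sets, so the size of the difference is not measured. The calls of COL9A1 and COL9A2 were lost without female D, female E or male C, those of COL9A3 and ITGAM without female D or female E, and that of ITGAM without the block for animal (adjusted p = 0.089). In all 10 alternatives run on them the ranges of COL9A1, COL9A2, COL9A3 and ITGAM were still at least 1.02, 1.00, 1.07 and 1.07, so the losses came from adjusted p-values above 0.05. The number called was 4 without female D and 3 without female E, whose layer 4Ca array stood apart.

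COL24A1 was below the filter in the cortex as a whole, and its highest cortical levels were in layer 6. In V1 layer 6 it averaged 5.11 ± 0.028 (SD, n = 4), and in the other 7 V1 layers its means lay between 3.14 and 3.81. Tested without a filter, it was 1.71 ± 0.15 (SE) higher in V1 layer 6 than in the other V1 layers (adjusted p = 7.03e-09) and 1.44 ± 0.14 (SE) higher in layer 6 of the areas with 5 layers (adjusted p = 3.27e-07). In those areas layer 6 measured 5.30 in female D, 4.64 in female E, 4.40 in male A and 6.03 in male C, and layer 4 measured 3.23, 3.18, 3.03 and 3.76. The layer 4 values, and the layer 6 values of female E and male A, are below the median of all probe sets, so the size of the difference is not measured.

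The areas were compared on the mean of layers 2, 3, 5 and 6 per animal, in 38 pairs of animal and area. Of 45 members 7 were called across areas, beside 9.21% of all genes: COL4A5, COL11A1, COL12A1, LAMB1, ITGA6, ITGB8 and ITGB3BP. The median fitted range was 0.55 over the members and 0.50 over all genes. Among those not called the ranges of ITGB2, the leukocyte beta subunit (0.97, adjusted p = 0.0015), and COL15A1, a basement membrane collagen related to COL18A1 (0.89, adjusted p = 8.14e-07), were the largest.

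ITGB8 was low in V1. It measured 7.64 in male A, 8.06 in male C, 7.89 in female D and 8.04 in female E there, and the lowest value of any animal in another area was 8.21, in V2. V1 was 1.19 lower than the other areas (difference -1.19 ± 0.081 SE, adjusted p = 3.12e-12), the 1 member called in that contrast, beside 1.21% of all genes. COL4A5 was high in M1, with a mean of 7.67 ± 0.58 (SD, n = 3), and low in ACG, with 5.98 ± 0.71 (SD, n = 4). It was 1.077 ± 0.13 (SE) higher in M1 than in the other areas (adjusted p = 2.68e-06; 0.98 without male A), the 1 member called there, beside 0.255% of all genes, and 0.94 ± 0.12 (SE) higher in S1, under the threshold of size. In M1 the difference of UGT8 was 1.35 ± 0.15, that of MBP 0.81 ± 0.12 and that of CNP 0.12 ± 0.057 (SE each). In ACG that of UGT8 was -1.23 ± 0.13, that of MBP -1.35 ± 0.11 and that of CNP -0.024 ± 0.051 (SE each), and their part in the COL4A5 differences was not tested.

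COL12A1 was highest in V1, with values between 6.53 and 6.91 in 4 animals, against area means of 5.72 to 6.13 elsewhere (range 1.02, adjusted p = 0.000394). The call was lost with arrays centred on their medians (0.97), without female E (0.89) and in the areas with widely spread hybridisation controls (0.18), which do not include V1. COL11A1 was lowest in V1, at 4.48 ± 0.23 (SD, n = 4), against area means of 5.05 to 5.75 elsewhere, and the V1 mean is below the median of all probe sets. LAMB1 averaged 6.02 ± 0.056 in ACG and 4.76 ± 0.17 in V2 (SD, n = 4 each), and the V2 mean is below the median of all probe sets. ITGA6 was highest in TE at 7.22 ± 0.18 and lowest in V1 at 6.13 ± 0.50 (SD, n = 4 each). ITGB3BP, whose product was named for its binding to the beta-3 subunit, had a range of 1.081, from its lowest mean in V1 to its highest in A1. The fitted V1 mean of ITGB3BP, 4.72, is below the median of all probe sets, so the size of its range is not measured.

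Many members differed in V1 by less than 1 log2 unit. An adjusted p under 0.05 was reached by 21 of 45 members in V1 against the others, 19 of them lower, beside 30.5% of all genes that were lower by that rule. The poly-A control RNAs, which are added to each sample before labelling, averaged 10.06 in V1, 9.91 in V2 and 8.54 to 9.38 elsewhere. With their level as a covariate the V1 difference of ITGB8 was -0.95 and no longer called, and the range of ITGA6 was 0.77.

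The hybridisation controls divided the areas into a set with little spread between arrays (A1, ACG, M1, S1, TE and V1) and one with a wider spread (DLPFC, MT, OFC and V2 in the cortex). Hippocampus and LGN had the wider spread too. The labels do not tie arrays to amplification batches, so differences between areas may not be separable from batch. Within the narrow set 7 members were called across areas, beside 725 of 10180 genes, with ITGB8 in V1 at -1.42 ± 0.088 and COL4A5 in M1 at 1.02 ± 0.16 (SE). Within the wide set none was called in limma, beside 145 of 10215 genes, where LAMB1 had a range of 1.02 (adjusted p = 0.065) and COL4A5 one of 0.84 (adjusted p = 0.0050). The wide set does not hold V1, M1 or ACG.

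**Figure D4:**
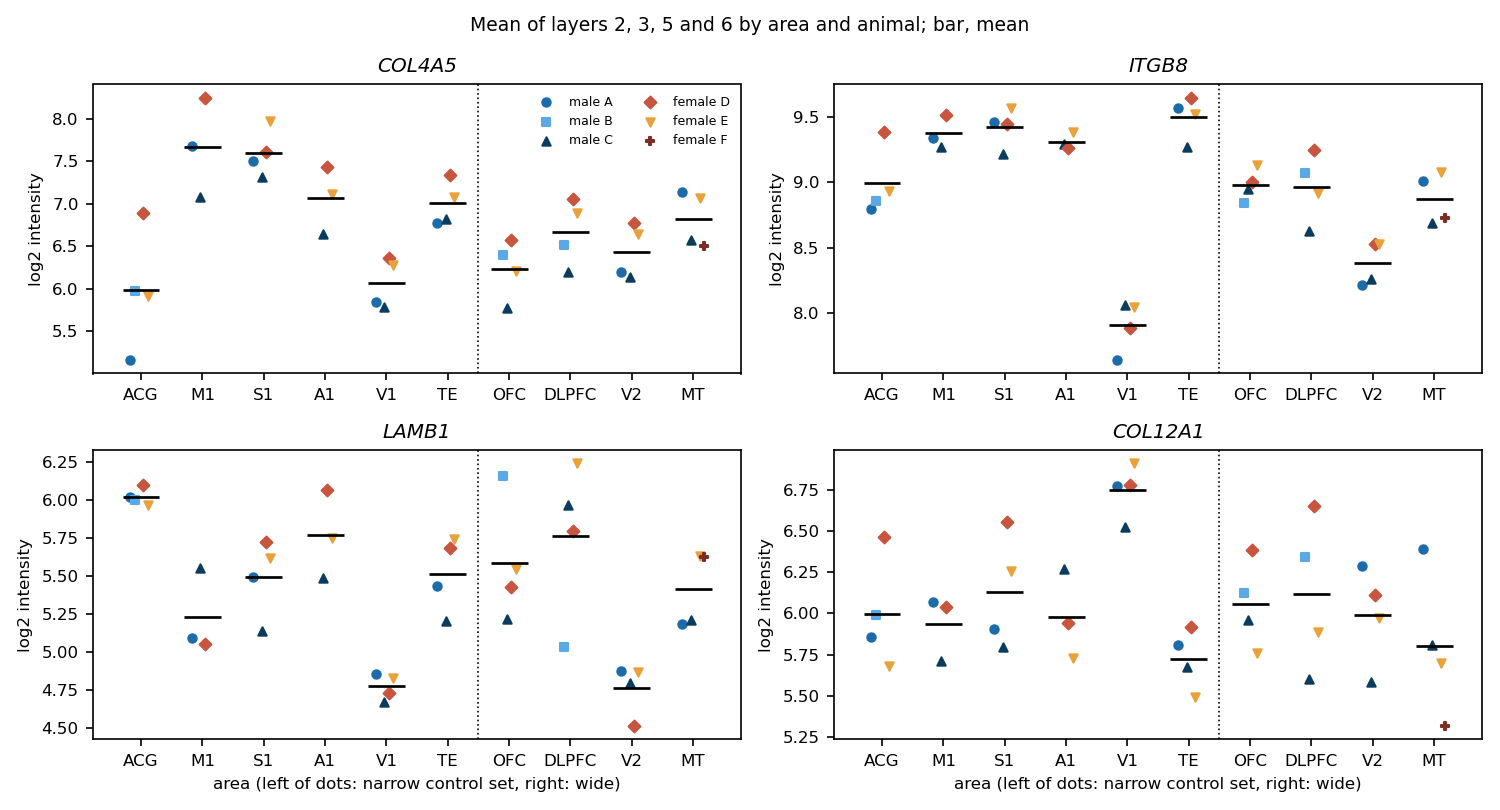
Mean of layers 2, 3, 5 and 6 of COL4A5, ITGB8, LAMB1 and COL12A1 (log2 intensity) in 10 cortical areas; symbols are animals, bars are means, and the dotted line divides the narrow (left) from the wide (right) control set. ITGB8 is lowest and COL12A1 highest in V1, and COL4A5 is highest in M1 and S1.

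The difference between deep and upper layers was also compared between areas. COL12A1 was the 1 member called, of 45 tested, beside 2.70% of all genes, with a range of 1.03 (adjusted p = 0.021). In V2 the difference measured -0.78 in female D, -1.11 in female E, -0.50 in male A and -0.80 in male C, and in MT -1.30 in female E, -0.31 in female F, -0.93 in male A and -0.20 in male C. In the other 8 areas the means lay between -0.32 and 0.19. The call was lost without the block for animal, where the range was 0.99 (adjusted p = 0.049), and without female D, female E, male B or male C. COL4A5 and LAMB1, whose deep minus upper differences were the largest, were not called here, with area means of 1.54 to 2.45 for COL4A5 and -2.87 to -1.90 for LAMB1.

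The 4 hippocampal fields were compared over 4 animals. Of 46 tested members 10 were called, beside 19.2% of all genes: 3 collagens (COL4A5, COL9A3 and COL18A1), 2 laminins (LAMB1 and LAMA4), 3 integrin alpha subunits (ITGA3, ITGA6 and ITGAM) and 2 integrin beta subunits (ITGB5 and ITGB8). The median range was 0.36 over the members and 0.50 over all genes. The largest ranges not called were those of COL9A1 (0.95, adjusted p = 0.0011) and COL5A3, a fibrillar collagen (0.75, adjusted p = 9.84e-06).

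LAMB1 was high in DG, the field of the granule cells, and low in CA3. In DG it measured 7.78 in female D, 6.94 in female E, 7.69 in male A and 7.44 in male C, and in CA3 it measured 4.69, 4.34, 5.65 and 5.52. It was 1.45 ± 0.22 (SE) higher in DG (adjusted p = 5.35e-05) and 1.76 lower in CA3 (difference -1.76 ± 0.22 SE, adjusted p = 3.91e-05) than in the other fields. The CA3 values of female D and female E are below the median of all probe sets. The size of the CA3 difference is not measured in these animals. COL4A5 was 1.19 ± 0.18 (SE) higher in CA3 (adjusted p = 0.000234), where it measured 6.76, 6.74, 6.99 and 6.98 in the same order of animals. In CA1 it was 5.35 ± 0.45 and in DG 5.49 ± 0.075 (SD, n = 4 each). COL18A1 was highest in DG, between 11.15 and 11.54, and lowest in CA1, between 9.91 and 10.50 (range 1.06, adjusted p = 0.000151). LAMA4 and COL9A3 were lowest in DG, with ranges of 1.07 and 1.19.

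In DG against the other fields 4 of 46 members were called, LAMB1 and the integrins ITGB5, ITGB8 and ITGAM, beside 10.3% of all genes. ITGB5, a vitronectin receptor subunit, measured 9.12 in female D, 8.73 in female E, 7.55 in male A and 8.39 in male C in DG, above all 12 arrays of the CA fields, which reached 7.22. The difference was 1.52 ± 0.20 (SE, adjusted p = 1.11e-05). ITGB8 was 1.082 ± 0.12 (SE) higher in DG (adjusted p = 3.73e-06), which was 0.94 without female D, and ITGA3, a laminin receptor subunit, 0.89 ± 0.14 (SE). ITGAM was lower in DG (-1.22 ± 0.10 SE, adjusted p = 1.19e-07), where its 4 values lay between 5.82 and 5.93 and those of the CA fields between 6.72 and 7.57. ITGA6 was 1.16 ± 0.19 (SE) higher in CA1 than in the other fields (adjusted p = 0.000322).

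In DG against the other fields 22 of 46 members had an adjusted p under 0.05, beside 60.4% of all genes. The oligodendrocyte list (mean of MBP, UGT8 and CNP) was at 8.79 in DG, 9.43 in CA1, 10.69 in CA2 and 10.95 in CA3. The astrocyte marker GFAP was 1.05 ± 0.16 (SE) higher in DG, and another astrocyte marker, SLC1A3, was lower (-1.14). The microglial receptor P2RY12 (-1.12) and the endothelial receptor TEK (-1.30 ± 0.13 SE) were lower there. GFAP, SLC1A3, P2RY12 and TEK are single genes of longer lists, whose other genes are not given here. The part of these cell types in the differences of the members was not tested. Below the filter, COL6A3, a collagen VI chain, averaged 5.20 ± 0.26 in CA3 and 4.06 to 4.25 in the other fields (1.06 ± 0.16 SE, adjusted p = 0.000228 without a filter).

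In the LGN 1 of 49 tested members was called between the 3 divisions, beside 0.401% of all genes. COL12A1 measured 6.62 in female D, 6.57 in female E, 6.26 in male A and 6.81 in male C in the magnocellular division and 6.16, 4.48, 5.26 and 5.91 in the parvocellular division. The difference was 1.12 ± 0.22 (SE, adjusted p = 0.027), and it was higher in 4 of 4 animals. It was not called without female E (0.79, adjusted p = 0.19), male A or male C, nor without the block for animal (adjusted p = 0.54). COL4A5 was highest in the koniocellular division at 8.39 ± 0.40 and lay at 7.59 ± 0.25 in the magnocellular one (SD, n = 4 each; range 0.79, adjusted p = 0.018), where the oligodendrocyte list was at 11.95 and 11.57.

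Hippocampus, LGN and cortex were compared in 4 animals, each giving 1 mean for a structure. Of 45 members 9 were called in the F test, beside 18.1% of all genes: 6 collagens (COL4A5, COL9A3, COL11A1, COL12A1, COL16A1 and COL18A1), the laminins LAMB1 and LAMB2, and ITGB1BP1. None of the 16 tested integrin subunits was called in limma. The largest ranges not called were those of COL5A3 (0.77) and COL9A2 (0.73). Hippocampus and LGN belong to the wide control set, and the cortical mean joins both sets. With the cortex of the wide set alone, all 24 called results between structures, pairwise differences included, kept their call. Differences between structures may not be separable from amplification batch, which is not labelled.

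COL11A1 was higher in the hippocampus than in the cortex or the LGN. It assembles with collagen II or V fibrils elsewhere in the body. COL11A1 measured 7.28 in female D, 6.72 in female E, 7.72 in male A and 7.87 in male C in the hippocampus and 5.49, 5.16, 5.10 and 5.58 in the cortex. It was 2.07 ± 0.19 (SE) higher than in the cortex (adjusted p = 3.69e-06) and 1.83 ± 0.19 (SE) higher than in the LGN. All 4 fields had means of 7.13 to 7.58. COL18A1 was 1.06 ± 0.066 (SE) higher in the hippocampus than in the cortex (adjusted p = 1.83e-07), or 0.98 after quantile normalization. COL12A1 (-1.21 ± 0.17 SE), COL9A3 (-1.03 ± 0.070 SE) and COL16A1 (-1.03 ± 0.083 SE) were lower in the hippocampus than in the cortex. The COL9A3 call was lost without male C (-0.98) and with the poly-A controls as a covariate, and that of COL16A1 after quantile normalization, without female E (-0.96) and without male C (-0.98). The calls were 5 of 45, beside 5.87% of all genes.

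Against the cortex averaged over its layers, COL4A4 and COL4A5 were higher in the LGN and LAMB1 and COL16A1 lower. COL4A4 measured 6.97 in female D, 7.87 in female E, 6.92 in male A and 6.84 in male C in the LGN, and 4.13, 3.94, 3.77 and 3.96 in the cortex. It was below the filter, and tested without one it was 3.20 ± 0.18 (SE) higher in the LGN than in the cortex (adjusted p = 6.80e-08). The cortical values are below the median of all probe sets, so the size of the difference is not measured. COL4A3, which assembles with COL4A4 in the kidney, had r = 0.30 with it over the 57 groups. COL4A3 was above the median of all probe sets in 4 groups and COL4A4 in 3, so most values behind this r are below it. COL4A3 averaged 4.88 in the LGN and 4.41 in the cortex, the latter below that median. COL4A5 was 1.11 ± 0.072 (SE) higher in the LGN than in the cortex (adjusted p = 9.97e-08). MBP was likewise 1.05 ± 0.083 and UGT8 2.09 ± 0.096 (SE each) higher in the LGN, while CNP averaged 12.13 in the LGN and 12.30 in the cortex; their part in the COL4A5 difference was not tested. LAMB1 was lower (-2.21 ± 0.12 SE, adjusted p = 1.90e-08), with LGN values of 3.36, 3.10, 3.25 and 3.01, below the median of all probe sets. COL16A1 was lower in the LGN (-1.16 ± 0.083 SE, adjusted p = 2.37e-07). The calls of COL4A5, LAMB1 and COL16A1, 3 among the 45 tested members, stood beside 10.8% of all genes.

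Between hippocampus and LGN 7 of 45 members were called, beside 14.3% of all genes. LAMB1 (3.19 ± 0.12 SE) and COL11A1 were higher in the hippocampus; the LAMB1 mean in the LGN, 3.18, is below the median of all probe sets. COL4A5 (-1.89 ± 0.072), COL9A3 (-1.54 ± 0.070), ITGB1BP1 (-1.12 ± 0.083), COL12A1 (-1.06 ± 0.17) and LAMB2 (-1.01 ± 0.076 SE each) were lower. The LAMB2 call was lost with arrays centred on their medians (-0.97), without female E (-0.97), without male A (-0.95) and with the poly-A covariate (-0.93), and that of COL12A1 without female D (-0.87). MBP (-2.39 ± 0.083) and UGT8 (-2.81 ± 0.096, SE each) were also lower in the hippocampus than in the LGN, while CNP averaged 12.22 and 12.13. Among 5 tested endothelial markers, CLDN5, TEK and CDH5 (3 of 5) were called lower, with a median of -1.13 over the 5. Of the matrix genes outside the family, the protease ADAMTS5 was 4.53 ± 0.13 (SE) higher in the LGN than in the cortex, and the laminin-related NTN4 lower (-4.70 ± 0.17 SE).

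**Figure D5:**
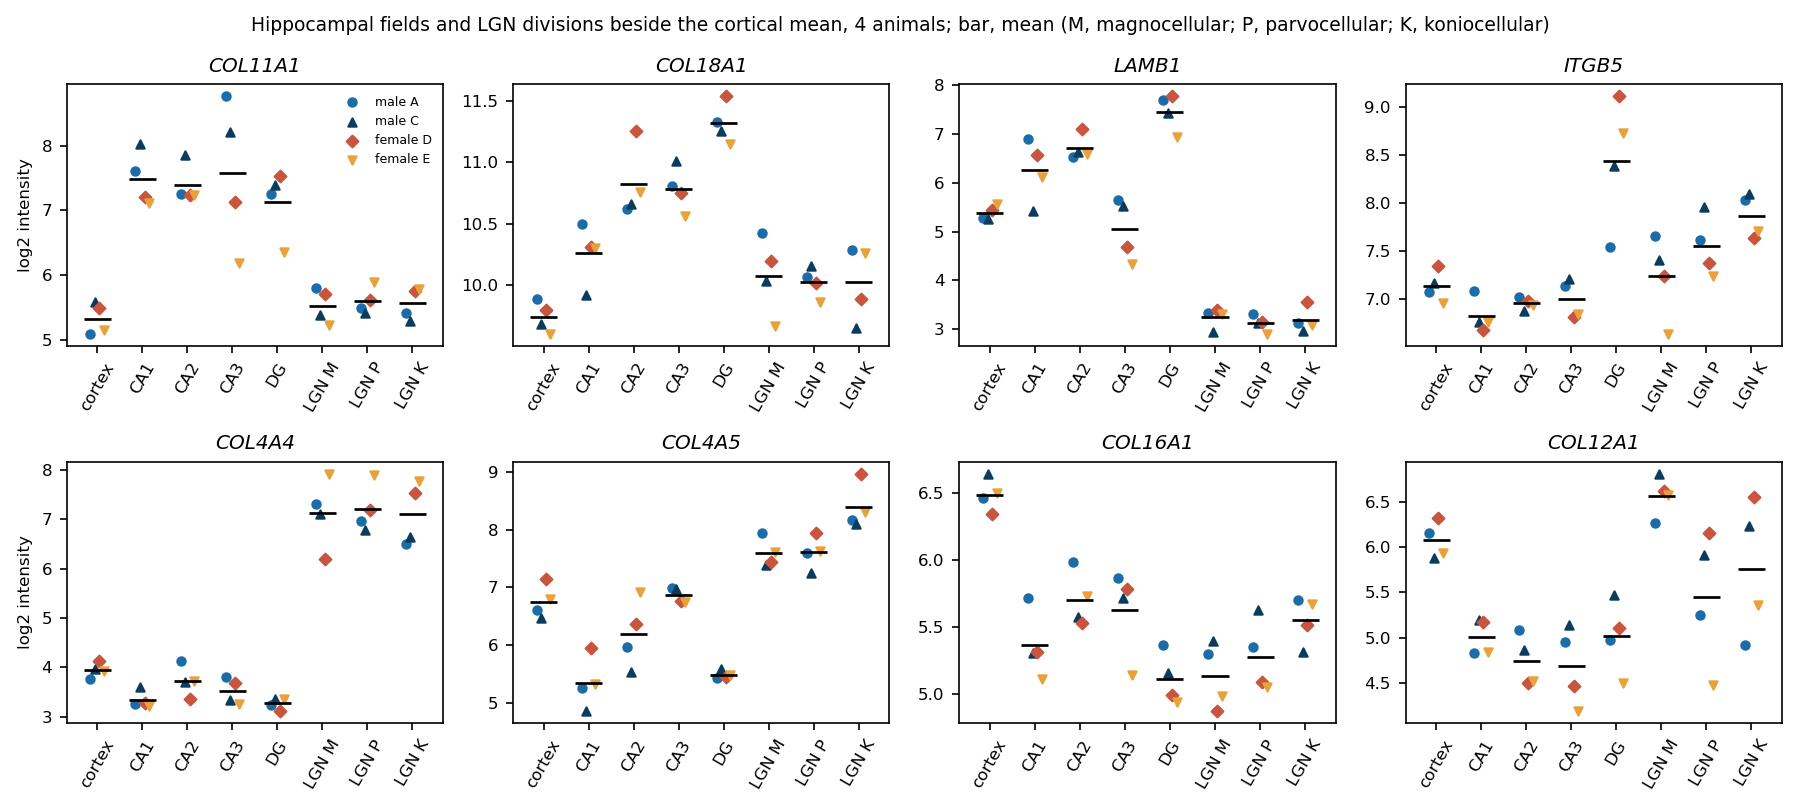
Log2 intensity of 8 members in the cortex (mean over areas), the 4 hippocampal fields and the 3 LGN divisions; symbols are 4 animals and bars their means. COL11A1 and COL18A1 are highest in the hippocampal fields, COL4A4 and COL4A5 in the LGN divisions, and LAMB1 and ITGB5 in DG.

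Chains and subunits that assemble together were compared over the 57 group means. The highest correlations were those of COL9A1 with COL9A3 (r = 0.83), COL9A2 with COL9A3 (r = 0.86) and COL9A1 with COL9A2 (r = 0.72), the 3 chains of collagen IX. COL6A1 and COL6A2 had r = 0.47. COL4A5 had r = -0.078 with its partner chain COL4A6, and both averaged above the median of all probe sets. LAMB1 had r = 0.35 with LAMC1, the common gamma chain, and -0.50 with LAMA4. Of the integrin pairs the highest was ITGA1 with ITGB1 (0.24), both below the median of all probe sets. The others included ITGA6 with ITGB4 (-0.22), ITGAV with ITGB8 (0.12), ITGAV with ITGB5 (0.037) and ITGAM with ITGB2 (-0.23). These values are descriptive, over groups that share animals and array sets.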

How the data were processed

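RNA of laser-captured tissue was measured on 1-colour arrays. Per the file headers, the authors ran RMA within each amplification batch in Matlab, normalized probe sets on the whole brain controls shared by the batches, and deposited log10 intensities. These were multiplied by the log2 of 10. The labels do not say which array was amplified in which batch. For each gene the probe set with 1 symbol and the highest mean was used; 63 of the 66 members had the same symbol in the RefSeq gene list. Models were fitted with limma 3.58.1 in R 4.3.3 over all genes above the filter, with Benjamini-Hochberg adjustment and tested on simulated data. Animals recur across groups, per the labels, so animal was a block. Layers and areas used only animal and area pairs with all layers needed.

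In each comparison the text names every called member up to 12, and the 2 largest differences among those not called. The members, gene lists and marker lists were chosen with earlier results of these data known. Means carry SD over animals, and differences the SE of the fit. The number of arrays limits the precision. Alternatives were no filter, no block, 2 other normalizations, another probe set per gene, leaving out each animal, and each control set alone; leaving out arrays that stood apart and a poly-A covariate were added after seeing the data.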

Additional observations from a re-analysis of the deposited data

Results flagged for a closer look

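The difference between deep and upper layers of COL12A1 was flagged because it differed between areas in the test of that difference itself. The range of the fitted area means was 1.03, from -0.83 in MT to 0.19 in ACG (limma, adjusted p = 0.021). Among the 24 highest and lowest groups of the 12 members with the widest ranges, 0 held an array far from the other 3.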

How the results depend on the processing

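Of 82 called results for single members outside the comparison of all 57 groups, 55 were called under every alternative run on them and 27 were lost under at least 1. None reversed. The probe set of highest variance gave values for 74 of the 82 results. It gave none for LAMA4 and COL11A1, whose other probe sets averaged 4.44 and 3.43, below the filter. Their results were therefore not tried with another probe set. Of 868 alternative values 806 kept the call and 62 lost it. The count of members called across areas was 7 and became 0 in the wide control set alone, where the count over all genes went from 939 to 145. The count in the LGN, 1, became 0 without a filter and 0 without a replicate block, and lay between 0 and 1 when each animal was left out. The count for the deep minus upper difference by area, 1, became 0 without the block for animal, 0 with arrays centred on their medians and 4 with the probe set of highest variance, and lay between 0 and 1 when each animal was left out. The count across V1 layers, 7, lay between 3 and 7 when each animal was left out. The block changed the count of no other comparison by over 1.5 times. LAMB2 in the hippocampus against the LGN was not called with arrays centred on their medians (-0.97), with the poly-A covariate (-0.93), or without female E (-0.97) or male A (-0.95). The causes were not tested. Members below the median of all probe sets have no reliable low level.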

Other observations

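COL5A2, a fibrillar collagen chain that assembles into collagen V, averaged 9.18 over the arrays by its main probe set, with a range of 0.67 over the 57 group means. Its 3 other probe sets had ranges of 1.10, 1.49 and 2.55, and r of 0.45, -0.22 and -0.079 with the main one. ITGBL1, which resembles an integrin beta subunit but lacks its membrane anchor, was below the filter and averaged 5.02 ± 0.26 in CA3 and 3.88 ± 0.084 in DG (SD, n = 4 each; range 1.14, adjusted p = 7.67e-05 in limma without a filter). The second probe set of COL13A1, a transmembrane collagen, had a range of 4.44 over the 57 groups, and the second probe set of ITGA2 a difference of 1.06 between deep and upper layers, against 0.31 for its main probe set; both second probe sets averaged below the median of all probe sets.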
